A study of Mus musculus with 8 samples.

Results

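In the uterus of ovariectomised mice, H2-DMb1 and H2-K1 were low after bisphenol A (BPA) alone and after Korean red ginseng (KRG) alone, and high in the animals given neither or both. The comparison set the BPA and KRG libraries against the control and combined libraries, 2 against 2, which is the interaction contrast of a 2 by 2 layout. Its members were the 37 genes, of 9198 measured in uterus, whose single-treatment libraries lay together on one side of both other libraries with means at least 1 apart on the log2(CPM + 1) scale. CPM is the read count scaled to library size, with TMM factors within the tissue, and a gene was taken as measured where its mean over the uterus libraries reached 10 CPM.

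All 4 groups were female mice of the outbred CD-1 stock, ovariectomised at 6 weeks of age and rested for 1 week. They were dosed by mouth every day for 7 days: the control with neither agent, the BPA group with 200 mg/kg/day of BPA, the KRG group with 1.2 g/kg/day of KRG, and the combined group with both at those doses. BPA is a plastics monomer that binds oestrogen receptors, and KRG is steamed and dried ginseng root. Each group is 1 uterus library, read at transcript 3′ ends (QuantSeq), and 4 liver libraries follow the same layout. A library may hold 1 animal or several, which is not given in the sources used here, so a treatment and a difference between animals of an outbred stock cannot be told apart for any value below. The uterus libraries held 12990417 to 14797515 counts. The oestrogen receptor Esr1 lay between 89.0 and 190 CPM in them, and the smooth muscle myosin Myh11 between 355 and 528 CPM. Liver plasma protein genes were uneven across the uterus libraries: Alb was at 234 CPM in control, 4.57 in BPA, 435 in KRG and 2.11 in combined, and Apoa1 at 39.1, 1.11, 97.6 and 0.82 in the same order.

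H2 genes encode the mouse major histocompatibility complex (MHC). H2-K1 and H2-D1 are class I heavy chains, which carry peptides from inside the cell to the surface of nearly all cells, and Tap1 and Tap2 form the pump that brings those peptides into the endoplasmic reticulum. H2-Aa, H2-Ab1 and H2-Eb1 are class II chains of dendritic cells, macrophages and B cells. Their groove is first held by the invariant chain Cd74, and the H2-DM dimer, one chain of which is H2-DMb1, exchanges its last fragment for antigen peptides.

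The start regions of the genes at the centre of the comparison are shown because H2-DMb1 and H2-Eb1, both class II genes, lay on opposite sides of the contrast, while H2-DMb1 and H2-K1, of different classes, lay on the same side. RefSeq windows on GRCm38.p6 run from 250 bases before to 50 after the RefSeq gene start, on the gene's strand. H2-DMb1 is at chr17:34152941-34153240 on the plus strand and H2-Eb1 at chr17:34305617-34305916 on the plus strand. H2-K1, 1 of 2 entries, is at chr17:34000298-34000597 on the minus strand. The GENCODE start of H2-DMb1, 34153072, is not the RefSeq start on which its window was placed. Capitals mark every CCAAT, read on either strand so that ATTGG counts too, and the longest run of bases that the H2-DMb1 and H2-Eb1 windows have in common.
H2-DMb1: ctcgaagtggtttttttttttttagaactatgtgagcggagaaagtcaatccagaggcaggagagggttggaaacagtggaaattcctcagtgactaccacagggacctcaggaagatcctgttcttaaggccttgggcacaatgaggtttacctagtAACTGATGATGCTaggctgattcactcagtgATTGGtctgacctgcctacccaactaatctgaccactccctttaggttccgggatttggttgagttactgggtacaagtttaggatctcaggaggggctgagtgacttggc
H2-Eb1: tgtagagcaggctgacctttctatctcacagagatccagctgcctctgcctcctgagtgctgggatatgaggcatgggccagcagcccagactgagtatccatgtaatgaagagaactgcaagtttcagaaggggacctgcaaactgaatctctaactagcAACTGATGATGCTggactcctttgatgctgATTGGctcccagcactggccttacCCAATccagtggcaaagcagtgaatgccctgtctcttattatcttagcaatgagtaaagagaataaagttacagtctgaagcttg
H2-K1: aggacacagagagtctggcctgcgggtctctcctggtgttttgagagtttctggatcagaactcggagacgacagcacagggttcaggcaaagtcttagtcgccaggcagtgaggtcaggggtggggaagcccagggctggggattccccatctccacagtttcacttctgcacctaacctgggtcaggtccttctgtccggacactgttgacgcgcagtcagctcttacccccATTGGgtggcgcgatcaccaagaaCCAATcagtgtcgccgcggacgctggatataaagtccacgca
The common run, aactgatgatgct, is 13 bases long and starts at base 159 of the H2-DMb1 window and base 162 of the H2-Eb1 window. It is followed after 18 bases in H2-DMb1, and after 17 in H2-Eb1, by ATTGG. The run was picked because these windows share it, and it was found on either strand in 3 of 32851 promoter windows (0.00913%), those of H2-DMb1, H2-Eb1 and Slc39a10. CCAAT was found once in the H2-DMb1 window and at 2 places each in those of H2-Eb1 and H2-K1. It stands in 37.4% of all windows, and of the 27 genes of the 37 with an entry, 10 had it. These are matches of letters, not sites, and they do not separate the side on which a gene lay.

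H2-DMb1 had the widest separation of the 37 genes. It was at 90.0 CPM in control, 7.27 in BPA, 8.47 in KRG and 54.8 in combined, from 1231, 105, 103 and 806 reads. Both single-treatment libraries were thus far below both others, and they were close to each other. The difference of means was -3.01 on the log2(CPM + 1) scale. The nearest libraries across the pairs, KRG and combined, differed 6.47-fold, with an exact Clopper-Pearson 95% interval of 5.26 to 8.02 that covers counting error only. Against control, the log2 difference was -3.46 with BPA, -3.26 with KRG and -0.70 with both, where the sum of the single differences is -6.72. For a gene at 90.0 CPM in control that sum lies beyond the floor of the scale, so it could not be reached. H2-DMb1 lies on chromosome 17 at 34153072 to 34160230 of GRCm38, plus strand.

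H2-K1, 153 kb from H2-DMb1 at 33996017 to 34000347 on the minus strand, had the second widest separation. It was at 280 CPM in control, 82.0 in BPA, 81.7 in KRG and 238 in combined. The single-treatment libraries were nearly equal and both were below the others. The difference of means was -1.65 on the log2 scale, and the nearest libraries, BPA and combined, differed 2.91-fold (95% counting interval 2.72 to 3.11). Against control the log2 difference was -1.76 with either single treatment and -0.23 with both. H2-K1 resembles H2-D1 near the 3′ end, with 86.4% identity over the aligned part of the last 300 bases, so reads could be split between them. H2-D1 itself was at 421, 521, 493 and 558 CPM, and the sum of both at 700, 603, 575 and 796 CPM, in the order control, BPA, KRG and combined. The sum was also lower in both single treatments, but far less separated than H2-K1 alone, with BPA at 603 CPM against 700 in control. The size of the H2-K1 difference is therefore uncertain.

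The remaining class II genes did not share the H2-DMb1 pattern. H2-Aa was at 130, 100, 64.7 and 68.9 CPM in control, BPA, KRG and combined, H2-Ab1 at 61.4, 41.6, 40.1 and 26.3, and Cd74 at 69.4, 54.7, 64.0 and 26.5; in all 3 the pairs overlapped. H2-DMa, the partner chain of H2-DMb1, was under the filter at 3.67 to 7.60 CPM, and H2-DMb2, 79.4% identical to H2-DMb1 over the aligned 3′ end, at 0 to 0.97 CPM. H2-Eb1 ran the other way, at 46.1 CPM in control, 78.6 in BPA, 71.1 in KRG and 30.5 in combined. Both single-treatment libraries were above both others, with a log2 difference of 0.98 that fell just short of the threshold. Of the 9 measured genes on a list for class II and its loading, 1 was lower and called, and 1 was higher without overlap. Over all measured genes, 13.3% were lower and 11.6% higher without overlap. The median log2 difference of the list was 0.02, against -0.004 over all measured genes.

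Among 14 measured genes for class I and its loading, H2-K1 was the called member, and Tap2 and B2m were higher in both single treatments without overlap. Of all measured genes, 11.6% were higher and 13.3% lower without overlap. B2m, the light chain that all class I heavy chains need, was at 284 CPM in control, 305 in BPA, 494 in KRG and 211 in combined. Tap2 was at 63.2 CPM in control, 108 in BPA, 68.4 in KRG and 58.3 in combined. KRG and control differed 1.08-fold in Tap2, with a counting interval of 0.98 to 1.19 that includes 1. Its partner Tap1 was at 24.6, 31.1, 17.5 and 23.9 CPM, with overlapping pairs. The marker sums of antigen-presenting cells had another order than H2-DMb1: the summed CPM of 12 dendritic cell genes was 110, 130, 142 and 157 in control, BPA, KRG and combined, that of 16 macrophage genes 535, 586, 539 and 698, and that of 15 B cell genes 72.9, 131, 67.3 and 42.7, with the B cell factor Pax5 at 0 in all 4. Only 3 of the dendritic cell genes and 1 of the B cell genes reached the 10 CPM filter. In the macrophage list, 3 of 13 measured genes (Cd163, Ms4a7 and Folr2) were lower in both single treatments without overlap and 2 higher. Over all measured genes these shares were 13.3% and 11.6%. The list's median was -0.15, and the counting intervals of the nearest pairs of those 3 include 1. The part of these cells in the H2-DMb1 result was not tested. In bulk libraries, fewer cells of a type and less RNA per cell cannot be told apart.

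The genes that lie between the 2 class I ends of the complex were mostly level. From H2-K1 to H2-D1, 33996017 to 35267499 on chromosome 17 and 1.27 Mb long, 47 of 87 genes were measured and 42 of them had a difference within 0.5 on the log2 scale. H2-K1 and H2-DMb1 were the called genes, and after them H2-Eb1 stood out most, followed by Tnxb at 0.72. Without overlap, 5 genes were higher, against 11.6% of all measured genes (1068), and 9 were lower, against 13.3% (1225). The median of the interval was -0.06.

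**Figure D1:**
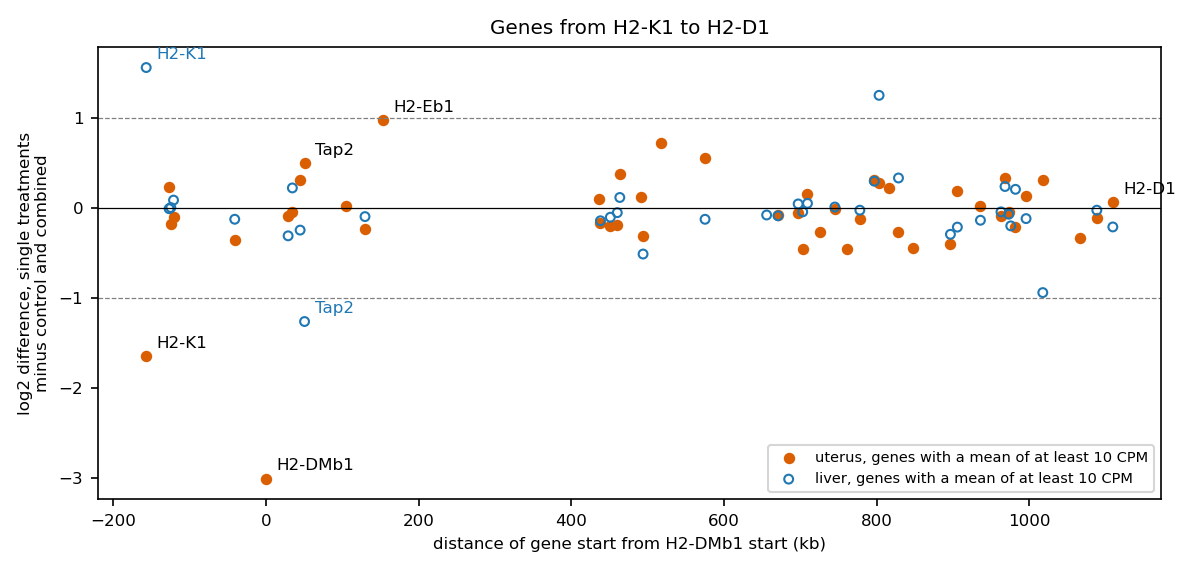
Log2 difference of the single-treatment libraries from the control and combined libraries (vertical axis) for measured genes from H2-K1 to H2-D1, by distance of the gene start from that of H2-DMb1 in kb (horizontal axis), in uterus (filled) and liver (open); 1 point is 1 gene and the dashed lines mark 1 and -1. In uterus H2-DMb1 at -3.01 and H2-K1 at -1.65 lie below the lower line, and the genes around them lie near 0.

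In liver H2-K1 and H2-Eb1 took the sides opposite to those in uterus, in each with BPA close to combined, and H2-DMb1 took none. Liver H2-K1 was at 137 CPM in control, 572 in BPA, 1057 in KRG and 507 in combined. Both single treatments were above both others, and the means were 1.56 apart on the log2 scale. The nearest libraries, BPA and combined, were only 0.17 apart, and control was the lowest. Liver Tap2 was at 122, 62.1, 26.9 and 81.7 CPM in that order, and its log2 difference was -1.26. H2-DMb1, at 0.51, 7.54, 17.4 and 12.9 CPM, and H2-Eb1, at 11.01, 4.92, 0.55 and 5.27 CPM, were under the 10 CPM filter in liver. The H2-DMb1 pairs overlapped there, with combined between BPA and KRG. In H2-Eb1 both single treatments were below both others, but BPA at 4.92 CPM was only just below combined at 5.27 CPM. In each tissue the library highest in H2-K1 was also the highest in H2-DMb1, and it was below the tissue's maximum in H2-Eb1 and Tap2. This was control in uterus and KRG in liver. Tap2 was picked after its values were seen, and the cause of this order was not tested. Whether the uterus and liver of a group came from the same animals is not given in the sources used here, and neither is the H2 haplotype of any animal.

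**Figure D2:**
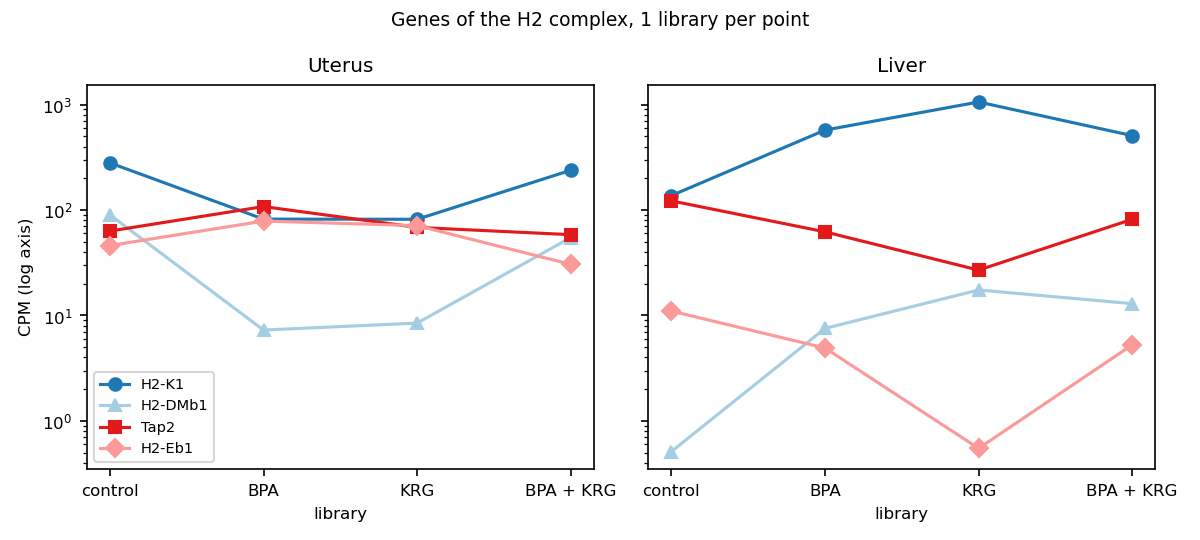
CPM on a log axis of H2-K1, H2-DMb1, Tap2 and H2-Eb1 in the control, BPA, KRG and BPA + KRG libraries of uterus (left) and liver (right); 1 point is 1 library, and the lines only join the points of a gene. H2-DMb1 is low at 7.27 and 8.47 CPM in the single treatments of uterus, and lowest in liver in control, at 0.51 CPM.

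Across all genes, 22 were called higher in both single treatments (0.239% of 9198) and 15 lower (0.163%). BPA, with against without, called 507 genes in either direction (5.51%) and KRG called 79 (0.859%) by the same rule and from the same 4 libraries. A further 85 genes differed by at least 1 in the single-treatment contrast but had overlapping pairs. The standard deviation of the difference over all genes was 0.33 for the single-treatment and KRG contrasts and 0.71 for BPA. Just inside the threshold lay Spon2 at 1.01 and Cxcr4 at -1.04, and just outside Aldh1a3 at 0.997 and Spint2 at -0.95.

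The extreme library was most often KRG on the single-treatment side and the combined library on the other. Of the 22 higher genes, 18 were highest in KRG and 4 in BPA, and 16 were lowest in combined and 6 in control. Of the 15 lower genes, 10 were lowest in KRG and 5 in BPA, and 11 were highest in combined and 4 in control. With every cross pair at least 2-fold apart, 1 higher gene (9530091C08Rik) and 3 lower genes (H2-DMb1, H2-K1 and Rnu11) were left. For 27 of the 37 the counting interval of the nearest pair lay above 1. Leaving out a library leaves 3 to separate, and the numbers of higher and lower genes were then 249 and 319 without control, 304 and 235 without BPA, 30 and 46 without KRG, and 81 and 57 without the combined library. Of the 22 higher and 15 lower genes, 18 and 14 were still called without control, 21 and 12 without BPA, 5 and 9 without KRG, and 11 and 10 without the combined library. That the sign of a called gene holds when 1 library is left out follows from the rule.

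edgeR's quasi-likelihood test, 2 against 2 over the 9198 genes, called 0 genes with Benjamini-Hochberg adjustment (lowest adjusted p = 0.9996), with 81 higher and 44 lower at an unadjusted p under 0.05. Its residual holds the effects of BPA and of KRG, since each group is 1 library. DESeq2's Wald test in the same design called 3 genes: H2-DMb1 (adjusted p = 1.08e-12) and H2-K1 (adjusted p = 1.82e-09) lower, and Irf2bp2 (adjusted p = 0.0086) higher. These p-values compare 4 libraries, and have no replicate of a condition behind them.

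**Figure D3:**
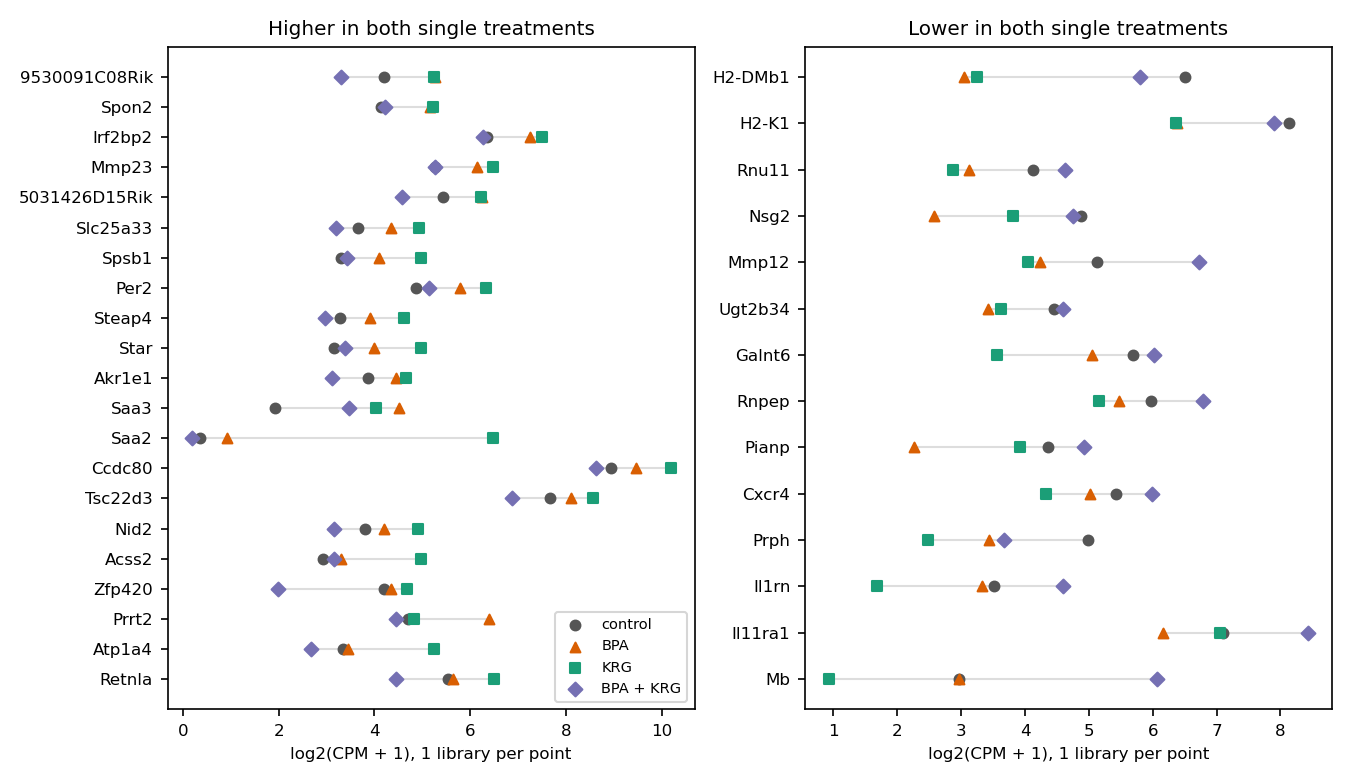
Log2(CPM + 1) of 21 of the 22 genes higher (left) and 14 of the 15 genes lower (right) in both single treatments, ordered by the distance between the nearest libraries of the pairs; 1 point is 1 uterus library. H2-DMb1 and H2-K1 have the widest separations, and for genes at the bottom, such as Mb and Retnla, 2 points of opposite pairs nearly touch.

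Irf2bp2, a partner of the repressor IRF2, had the third widest separation of the higher genes, after 9530091C08Rik and Spon2. It was at 80.3 CPM in control, 152 in BPA, 181 in KRG and 75.9 in combined. KRG was somewhat above BPA and the other libraries were nearly equal, with a log2 difference of 1.08. The nearest libraries, BPA and control, differed 1.89-fold (95% counting interval 1.76 to 2.03). Against control, the log2 difference was 0.91 with BPA, 1.16 with KRG and -0.08 with both. In liver Irf2bp2 was at 24.8, 30.2, 27.7 and 41.8 CPM in the order control, BPA, KRG and combined, with the combined library highest.

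Several higher genes encode secreted or matrix proteins. Spon2, an extracellular matrix protein of the spondin family, was at 16.7 CPM in control, 34.7 in BPA, 36.1 in KRG and 17.5 in combined. Mmp23, a matrix metalloproteinase, was at 37.7, 70.0, 88.4 and 37.5 CPM in that order, a log2 difference of 1.04. In both genes the combined library was close to control, with log2 differences of 0.07 and -0.01. Ccdc80, a matrix-associated glycoprotein, was far more abundant, at 489, 698, 1162 and 391 CPM, and the basement membrane protein Nid2 was at 12.9, 17.3, 28.9 and 7.89 CPM. In both of these KRG was the highest library and combined the lowest.

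Extracellular matrix genes as a group lay higher in both single treatments, each by a small step. Of 37 measured genes on the matrix list, 21 were higher without overlap and 0 lower, where 11.6% and 13.3% of all genes were. In 36 of the 37 the difference was above 0, and its median was 0.55 on the log2 scale against -0.004 over all genes. None reached the threshold of 1. Summed over the list, the level was 8214 CPM in control, 10991 in BPA, 12185 in KRG and 9251 in combined.

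Basement membrane, fibrillar and crosslinking genes were among the 21. Fibronectin (Fn1) was at 311 CPM in control, 466 in BPA, 505 in KRG and 310 in combined. The collagen crosslinking enzyme Lox was at 48.4, 73.0, 73.9 and 46.0 CPM, and nidogen (Nid1), which ties laminin to collagen IV, at 52.6, 83.8, 83.6 and 57.3 CPM. These genes had the single treatments nearly equal and the others nearly equal. Col6a3 was at 268, 366, 661 and 275 CPM and Col4a1, of the basement membrane, at 76.2, 109, 173 and 85.3 CPM, with KRG above BPA. Tenascin C (Tnc) was at 17.7, 50.6, 26.2 and 19.7 CPM, with BPA above KRG. In Col1a1 the pairs did not overlap either, but mainly the control stood apart: it was at 268 CPM in control and 668, 671 and 623 CPM in BPA, KRG and combined.

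**Figure D4:**
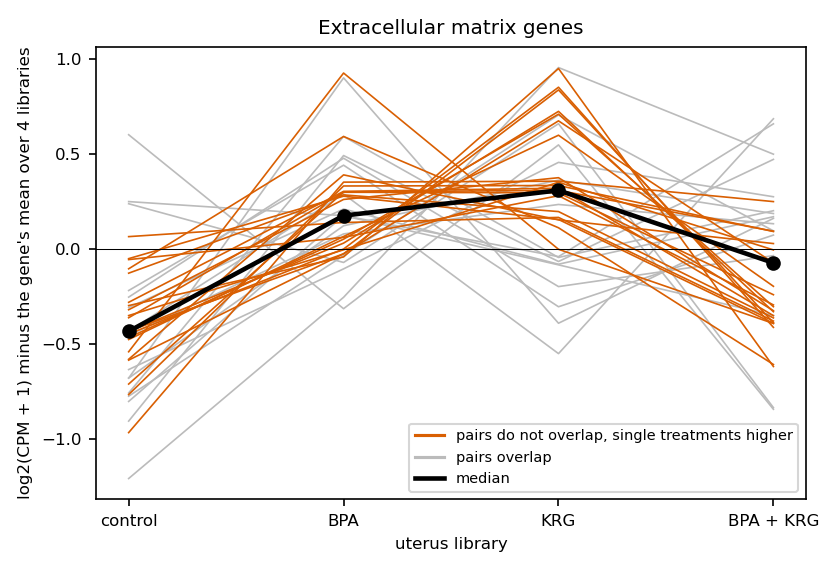
Log2(CPM + 1) of 37 extracellular matrix genes in the 4 uterus libraries (horizontal axis), each minus the gene's own mean over the 4 (vertical axis); orange lines are the 21 genes whose pairs do not overlap, grey lines the others, and the black line the median. The median is -0.43 in control, 0.18 in BPA, 0.31 in KRG and -0.07 in combined.

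The cells that make matrix gave smaller differences by their own markers. Of 15 stromal fibroblast genes, 3 were higher without overlap and 0 lower, with a median of 0.23. Over all measured uterus genes these shares were 11.6% and 13.3%. Their summed level was 7204, 8712, 9973 and 8428 CPM in control, BPA, KRG and combined. Of 15 smooth muscle genes, 4 were higher without overlap and 0 lower, against the same uterus shares, with a median of 0.21. Synpo2, an actin-bundling protein of muscle, was the clearest at 117, 175, 228 and 140 CPM. The fibroblast sum put the 4 libraries in the same order as the matrix sum, and the lists share genes, Lum and Col1a1 among them. Its part in the matrix result was not tested. In liver, 13 matrix genes were measured, 0 were higher and 3 lower without overlap, and the median was -0.04, where 17.6% of all 6705 measured liver genes were higher (1183) and 15.9% lower (1068).

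Matrix proteases went both ways. Of 15 measured on the list of proteases and their inhibitors, 5 were higher and 1 lower without overlap, with a median of 0.47. Over all measured genes these shares were 11.6% and 13.3%. Mmp23 was called higher and Mmp12, the elastase of macrophages, was called lower. Mmp12 was at 34.1 CPM in control, 17.8 in BPA, 15.5 in KRG and 105 in combined. Both single treatments were below control, and the combined library was the highest by far. The macrophage sum given above was also highest there, with Cd68 at 38.8 CPM against 9.87 to 15.4 in the other libraries. The dendritic cell gene Itgax was at 50.2 CPM there, against 9.79 to 11.4. Without Itgax, the dendritic cell sum would not be highest in combined. Other genes of antigen-presenting cells went the other way: Cd74 and H2-Ab1 were lowest in combined, at 26.5 and 26.3 CPM. The part of these cells in the Mmp12 result was not tested. Mmp9, a gelatinase, was higher, at 29.5, 59.2, 43.9 and 36.6 CPM in control, BPA, KRG and combined.

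Clock and glucocorticoid-induced genes shared members among the higher genes. Per2, a repressor of the circadian clock, was at 28.4 CPM in control, 54.0 in BPA, 79.5 in KRG and 34.0 in combined, a log2 difference of 1.05. Its relative Per1 was at 44.7, 90.6, 65.6 and 34.8 CPM, again with both single treatments on top, at 0.95. Tsc22d3, known as GILZ and induced by glucocorticoids, was at 203, 274, 377 and 116 CPM. Of 15 measured clock genes, 5 were higher and 2 lower without overlap, against 11.6% and 13.3% of all genes, with a median of 0.25. The other three higher ones, Cry1, Hlf and Rora, differed by 0.24 to 0.55, and the lower ones, Clock and Cry2, by -0.27 and -0.21. The hour of tissue collection is not given in the sources used here.

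A list of 24 glucocorticoid-induced genes was chosen after these values were seen, and is given as a description. Of its 19 measured members, 8 were higher without overlap and 0 lower, against 11.6% and 13.3% of all uterus genes, with a median of 0.38. Beside Per1, Per2 and Tsc22d3 these were Klf9, Cebpb, Cebpd, Errfi1 and Fkbp5. The transcription factor Klf9 was at 240, 343, 293 and 234 CPM in control, BPA, KRG and combined. In liver 9 of 19 measured members were higher without overlap and 0 lower, against 17.6% and 15.9% of all liver genes, with a median of 0.49. Liver Tsc22d3 was at 101, 223, 244 and 143 CPM, so in both tissues its single-treatment libraries were above the others. Liver Lpin1, a lipid phosphatase on the same list, was at 114, 387, 509 and 82.5 CPM, while in uterus its pairs overlapped, with KRG alone high at 175 CPM against 43.7 to 45.0.

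Steroid and acute-phase genes were among those highest in KRG. Star, which brings cholesterol into mitochondria for steroid synthesis, was at 7.89 CPM in control, 14.8 in BPA, 30.6 in KRG and 9.45 in combined. Star is on a list of 12 ovary genes. Their summed level, Star included, was 42.3, 52.9, 63.5 and 27.8 CPM in control, BPA, KRG and combined. From control to KRG, Star rose by more CPM than this sum did. Without Star, the sum was thus not higher in KRG than in control. Of the list's 3 measured genes, Star and Inhba were higher without overlap, as were 11.6% of all measured genes, and Foxl2 was not. The median was 0.93. The defining ovary genes Amh, Cyp19a1, Lhcgr, Zp3 and Oosp1 were at 0 in all 4 libraries. The part of ovary tissue in the Star value was not tested. Saa2, an acute-phase serum amyloid, was at 0.29, 0.90, 88.1 and 0.14 CPM. Its large difference of 3.42 rests on the KRG library, and the counting interval of its nearest pair, BPA against control, runs from 0.95 to 13.0. Saa1 was at 1.17, 0.69, 92.1 and 0.95 CPM, also high in KRG alone, and the 2 genes are 94.3% identical over the aligned 3′ end. Saa3, 36.1 kb from Saa2 and made chiefly outside the liver, was at 2.78, 21.96, 15.4 and 10.1 CPM and was highest in BPA. The KRG library was also the highest in Alb, and its part in the Saa2 value was not tested.

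Transport, metabolic and less studied genes made up the rest of the higher side. Atp1a4, a sodium pump chain known from sperm, was at 9.14 CPM in control, 9.91 in BPA, 36.8 in KRG and 5.37 in combined. KRG was on top, with BPA closer to control than to KRG. Slc25a33, a mitochondrial carrier of pyrimidine nucleotides, was at 11.7, 19.3, 29.6 and 8.16 CPM, and Spsb1, a ubiquitin ligase adaptor 122 kb from it, at 8.92, 16.2, 30.2 and 9.79 CPM. Steap4, a metalloreductase, was at 8.70, 13.9, 23.5 and 6.87 CPM and the aldo-keto reductase Akr1e1 at 13.6, 21.0, 24.4 and 7.62 CPM. In Acss2, Zfp420, Prrt2, Atp1a4 and Retnla the nearest libraries differed by 1.08- to 1.13-fold with counting intervals that include 1, so their order across the pairs is not fixed at this depth. The Riken model 9530091C08Rik was at 17.3, 37.3, 36.8 and 8.91 CPM and 5031426D15Rik at 42.0, 75.2, 73.7 and 23.0 CPM.

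**Figure D5:**
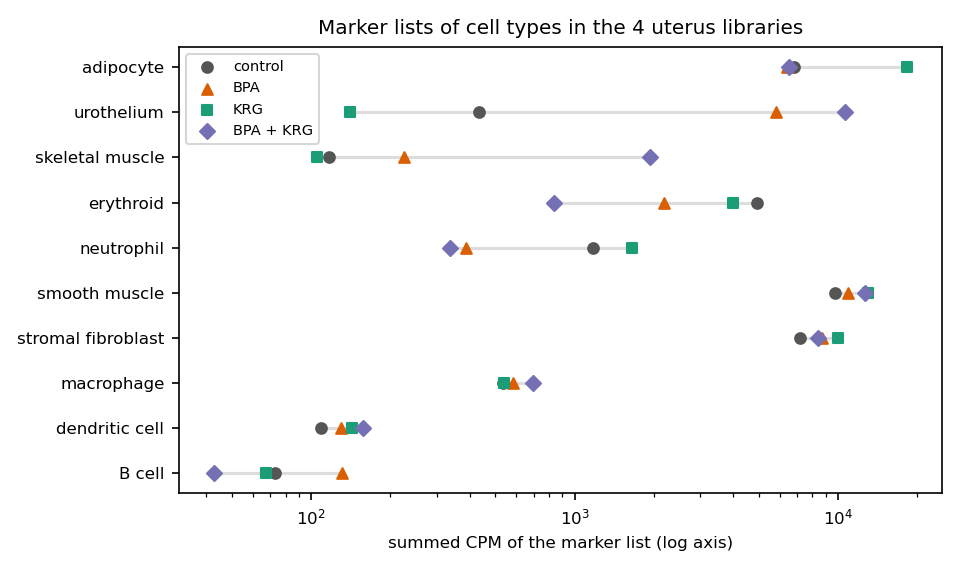
Summed CPM (log axis) of marker lists for 10 cell types in the 4 uterus libraries; 1 point is 1 library. Adipocyte genes are highest in KRG at 18334 CPM, skeletal muscle genes in combined at 1942 CPM, and urothelium genes in the BPA and combined libraries at 5827 and 10590 CPM.

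Single libraries stood apart in genes of neighbouring tissues. The sum of 14 adipocyte genes was 6798 CPM in control, 6421 in BPA, 18334 in KRG and 6540 in combined; the pairs overlapped in all 13 measured members, and none was called. The sum of 13 skeletal muscle genes was 117, 226, 106 and 1942 CPM. The muscle oxygen store Mb was the called member of that list, at 6.80, 6.79, 0.90 and 66.4 CPM, where control and BPA were equal to within counting error. The part of adipose tissue in the KRG-high genes and of muscle in the combined-high genes was not tested.

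Genes known from neurons were among the lower ones. Nsg2, an endosomal protein of neurons, was at 28.4 CPM in control, 4.99 in BPA, 13.1 in KRG and 26.05 in combined. Peripherin (Prph), an intermediate filament of peripheral neurons, was at 30.6, 9.84, 4.61 and 11.7 CPM. The combined library was close to control in Nsg2 but not in Prph. A list of 11 Schwann cell and nerve genes did not lie on this side as a group. Of its 5 measured genes, 1 was higher and 1 lower without overlap, against 11.6% and 13.3% of all genes. Its median was 0.30, and its sum was 341, 498, 752 and 636 CPM in control, BPA, KRG and combined.

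Immune and other genes completed the lower side. The chemokine receptor Cxcr4 was at 41.7 CPM in control, 31.2 in BPA, 19.0 in KRG and 62.7 in combined, and the interleukin 1 antagonist Il1rn at 10.4, 9.01, 2.22 and 23.1 CPM. For Il1rn, Prph, Il11ra1 and Mb the counting interval of the nearest pair includes 1. Ugt2b34, a glucuronosyltransferase of the family that conjugates steroids and xenobiotics, was at 21.0, 9.77, 11.3 and 23.2 CPM, with even pairs. Rnu11, the U11 RNA of the minor spliceosome, was at 16.4, 7.69, 6.33 and 23.8 CPM. Galnt6, which starts mucin-type O-glycans, was at 50.8, 32.3, 10.9 and 64.1 CPM, the aminopeptidase Rnpep at 61.8, 43.6, 34.6 and 110 CPM, and Pianp, a ligand of the receptor PILRα, at 19.4, 3.81, 14.2 and 29.2 CPM. Il11ra1, an interleukin 11 receptor chain, was at 137, 70.6, 132 and 344 CPM. Il11ra2, which is 79.8% identical to it over the aligned 3′ end, was at 318, 170, 426 and 9.72 CPM, and the sum of both at 454, 241, 558 and 354 CPM had overlapping pairs, so the Il11ra1 value is uncertain.

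Nuclear RNAs and complement genes had members on the higher side without a called one. Of 12 nuclear RNAs and splicing factors, 6 were higher without overlap and 0 lower, with a median of 0.32; over all genes these shares were 11.6% and 13.3%, which also stand behind the counts that follow. Meg3, a maternally expressed long noncoding RNA, was at 66.4 CPM in control, 138 in BPA, 117 in KRG and 67.3 in combined. Malat1 was at 8056, 8348, 10222 and 3615 CPM, so the combined library was well below the other three and control almost reached BPA. Of 14 complement genes, 5 were higher without overlap and 0 lower, among them C1s1 at 121, 193, 133 and 74.4 CPM. Ribosomal protein genes, with 4 higher and 2 lower of 61, and oxidative phosphorylation genes, with 8 and 1 of 52, lay at medians of 0.07 and 0.10.

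Oestrogen targets of the uterus did not have this pattern. Of 21 measured, 1 was higher and 1 lower without overlap, against 11.6% and 13.3% of all genes, with a median of -0.22. Lactoferrin (Ltf), a classical oestrogen-induced secretory protein, was at 793 CPM in control, 116 in BPA, 226 in KRG and 82.6 in combined. The progesterone receptor Pgr was at 119, 71.5, 84.3 and 49.6 CPM. In both the control was highest and the combined library lowest, and the single treatments lay between.

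In liver the same contrast called 89 of 6705 measured genes (1.33%). Of the 37 uterus genes, 14 were measured in liver and 1, H2-K1, was called there, in the opposite direction, which is 2.7% of the uterus calls and 1.12% of the liver calls.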

How the data were processed

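Raw read counts per gene symbol, 1 column per library, were deposited; Bowtie2, edgeR and mm10 are named in the submitters' processing notes, and per the labels' protocols libraries were made from 500 ng of total RNA with a QuantSeq kit. How reads were counted, and on which strand, is not given in the labels. Of 23282 rows, 79 share a symbol with another row. TMM factors were computed within each tissue (edgeR 4.0.16), and differences on log2(CPM + 1). A call needs 2 pairs that do not overlap and means at least 1 apart. Each group is 1 library, so no value has a replicate error; intervals of the nearest pair are exact Clopper-Pearson and cover counting error only. DESeq2 1.42.0 was an alternative. The contrast and the edgeR step were tested on simulated data. The naming rule took the 15 called genes with the widest separation on each side, H2-DMb1, called members of lists with at least 2 of them, measured MHC class II genes, Esr1, Pgr and Ltf; the other called genes, list members and Tap2, Saa1, Il11ra2 and Alb were named after their values were seen. Members and lists were chosen with earlier results of these data known. Promoter windows are from RefSeq (GRCm38.p6), gene positions from GENCODE on GRCm38, the build of mm10. Rn45s took 8.62% to 11.3% of uterus counts. For 1 called gene on each side the values are not reported here.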

Additional observations from a re-analysis of the deposited data

Results flagged for a closer look

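H2-K1 differed between the tissues. The difference of the single-treatment libraries from control and combined was -1.65 in uterus and 1.56 in liver on the log2(CPM + 1) scale. In each tissue both single-treatment libraries lay on the same side of both others. In liver the nearest libraries, BPA and combined, were only 0.17 apart on that scale. Reads could be split between H2-K1 and the similar H2-D1, so the size of these differences is uncertain. The difference between tissues was not tested, since each group is 1 library per tissue.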

How the results depend on the processing

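The 22 higher and 15 lower genes became 44 and 47 with a filter at a mean of 1 CPM, 48 and 54 with no expression filter, and 10 higher with a pseudocount of 5 CPM (12 lower). With every cross pair at least 2-fold apart they were 1 and 3, and with no overlap at any size 1068 and 1225. Leaving out 1 library in turn gave 30 to 304 higher and 46 to 319 lower. Fewer or more genes tested, and fewer libraries to separate, follow from how these settings are made. Size factors gave 22 and 15 and scaling to the total count 21 and 14. Of the 22 higher genes, 5 were still called without KRG, 11 without the combined library and 10 with a pseudocount of 5 CPM; of the 15 lower genes, 9, 10 and 12. The 0 calls of edgeR became 3 with DESeq2's Wald test, and the cause was not tested. H2-DMb1 lay between -2.55 and -3.36 over the settings. The median of the matrix list lay between 0.40 and 0.81 when 1 library was left out. No paired analysis was possible because each group is 1 library. Leaving out adipocyte genes (22 higher) or skeletal muscle genes (14 lower), chosen after seeing the data, removes only members of those lists.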
